A study of Mus musculus with 2 samples.

Results

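The genes described here are the potassium channel genes of the mouse: all genes whose symbol is Kcn followed by 1 or 2 subfamily letters and a number, and which have a transcript annotated as protein-coding. The rule found 92 of 22028 protein-coding genes, in 20 subfamilies. Roles were assigned by subfamily letter. By role, 30 are voltage-gated pore subunits, 10 modifier subunits, 8 calcium- and sodium-activated pore subunits, 15 inward rectifiers, 14 two-pore-domain channels and 15 auxiliary subunits.

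Potassium channels let potassium leave the cell along its gradient and so set the resting potential of neurons and glia, end action potentials and control how often a neuron fires. Their pore domains come together around a selectivity filter that prefers potassium over sodium. Voltage-gated subunits open on depolarisation, calcium- and sodium-activated subunits on the rise of those ions, inward rectifiers pass current best near rest, two-pore-domain channels leak at all voltages, and auxiliary subunits change the gating or the surface number of the pores they join.

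The RNA was extracted from left cortices of 2 males of the F1 hybrid B6CASTF1/J at the age of 36 days, a cross of the B6 and CAST strains. Both belong to 1 group with no treatment named, are numbered as biological replicates 2 and 1, and each gave 1 library of total RNA, from 300 ng, with ribosomal RNA reduced and spike-in RNAs added. The labels give both mice the same donor identifier, and how the mice are related is not stated. No condition is compared, so the levels, their order and the difference between the mice are described, and with 1 mouse on each side no p-value was computed. The total expected count (estimated reads over all genes) was 27988085 in replicate 2 and 29915463 in replicate 1.

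The pore-forming members were searched for the codons of the selectivity filter. Their symbols name them as potassium channels, so a high share with these codons follows from the naming and is no independent finding. In the coding sequence of each of the 77 pore-forming members (voltage-gated, modifier, ion-activated, rectifier and two-pore-domain) a match was sought for threonine or serine, any residue, glycine, then tyrosine, phenylalanine or leucine, then glycine. At least 1 coding transcript of all 77 held it. In the most abundant coding transcript of each gene it was found in 75 of 77 pore-forming members (97.4%), in 0 of 15 auxiliary members and in 1037 of 21774 other protein-coding genes (4.76%). The following sequences stand for some of the pore types whose levels follow. Capitals mark the 9 bases for glycine, the middle residue and glycine, and 15 bases flank them on each side.
Kcna2: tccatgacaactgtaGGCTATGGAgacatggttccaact
Kcnh3: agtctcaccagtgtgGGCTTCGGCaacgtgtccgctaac
Kcnf1: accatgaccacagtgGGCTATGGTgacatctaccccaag
Kcnma1: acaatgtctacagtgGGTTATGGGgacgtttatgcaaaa
Kcnt1: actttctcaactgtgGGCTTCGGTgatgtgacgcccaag
Kcnk1, loop 1: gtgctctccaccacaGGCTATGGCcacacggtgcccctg
Kcnk1, loop 2: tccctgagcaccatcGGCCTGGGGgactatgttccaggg

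These sequences are from the GENCODE M21 transcripts on GRCm38, the same build as mm10. On the plus strand they lie at chr3:107105215-107105253 (Kcna2), chr15:99232920-99232958 (Kcnh3), chr2:25894358-25894396 (Kcnt1) and chr8:126025320-126025358 (Kcnk1, loop 2). On the minus strand they lie at chr12:17175046-17175084 (Kcnf1) and chr14:23528398-23528436 (Kcnma1). All of these are within 1 coding exon. Loop 1 of Kcnk1 is interrupted by an intron and runs from chr8:125995799 to chr8:126025034.

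The middle residue was shared within most subfamilies and varied within Kcnj and Kcnk. Tyrosine codons stood in all 22 members of Kcna, Kcnb, Kcnc, Kcnd and Kcnq, as in Kcna2, and in all 10 modifier subunits. All 8 Kcnh members carried phenylalanine codons, as in Kcnh3. Among ion-activated subunits 5 had tyrosine (Kcnma1 and 4 Kcnn genes) and 3 phenylalanine (Kcnt1, Kcnt2 and Kcnu1). Of 15 inward rectifiers 13 had tyrosine, and the 2 with phenylalanine were Kcnj8 and Kcnj11, the pores of ATP-sensitive channels. Every two-pore-domain gene held 2 matches in its coding transcript with the most matches, and 2 is the number of pore domains its protein carries. Their first match read tyrosine in 11 and phenylalanine in 3 (Kcnk2, Kcnk12 and Kcnk13), and the second phenylalanine in 11 and leucine in 3 (Kcnk1, Kcnk6 and Kcnk7). Kcna6 and Kcnh2 held an added leucine match upstream of the filter, and a match to these letters is a description of the sequence only. By the transcript with the most matches 16 of the 77 pore-forming members held 2, a choice for which no background was counted. By the most abundant coding transcript 15 of the 77 held over 1. Of the 15 auxiliary members 0 did, and of 21774 other protein-coding genes 98 did (0.450%).

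Potassium channel genes were detected broadly. At a TPM (transcript abundance scaled to a fixed total, a level per length of transcript) of at least 1 in both mice stood 69 of 92 members (75%), while the same was true of 58.6% of all protein-coding genes. Their median was 12.05 TPM in replicate 2 and 11.5 in replicate 1, beside 3.82 and 3.49 for all protein-coding genes. A mean of at least 10 TPM was reached by 49 of the 92 members and of at least 50 by 15. Of all 22028 protein-coding genes, 8246 and 2218 reached these levels. Together the members summed to 2255 TPM in replicate 2 and 2209 in replicate 1, and they took 0.665% and 0.664% of the expected counts. In bulk tissue, fewer cells of a type and less RNA per cell cannot be told apart, and that holds for each level below.

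**Figure D1:**
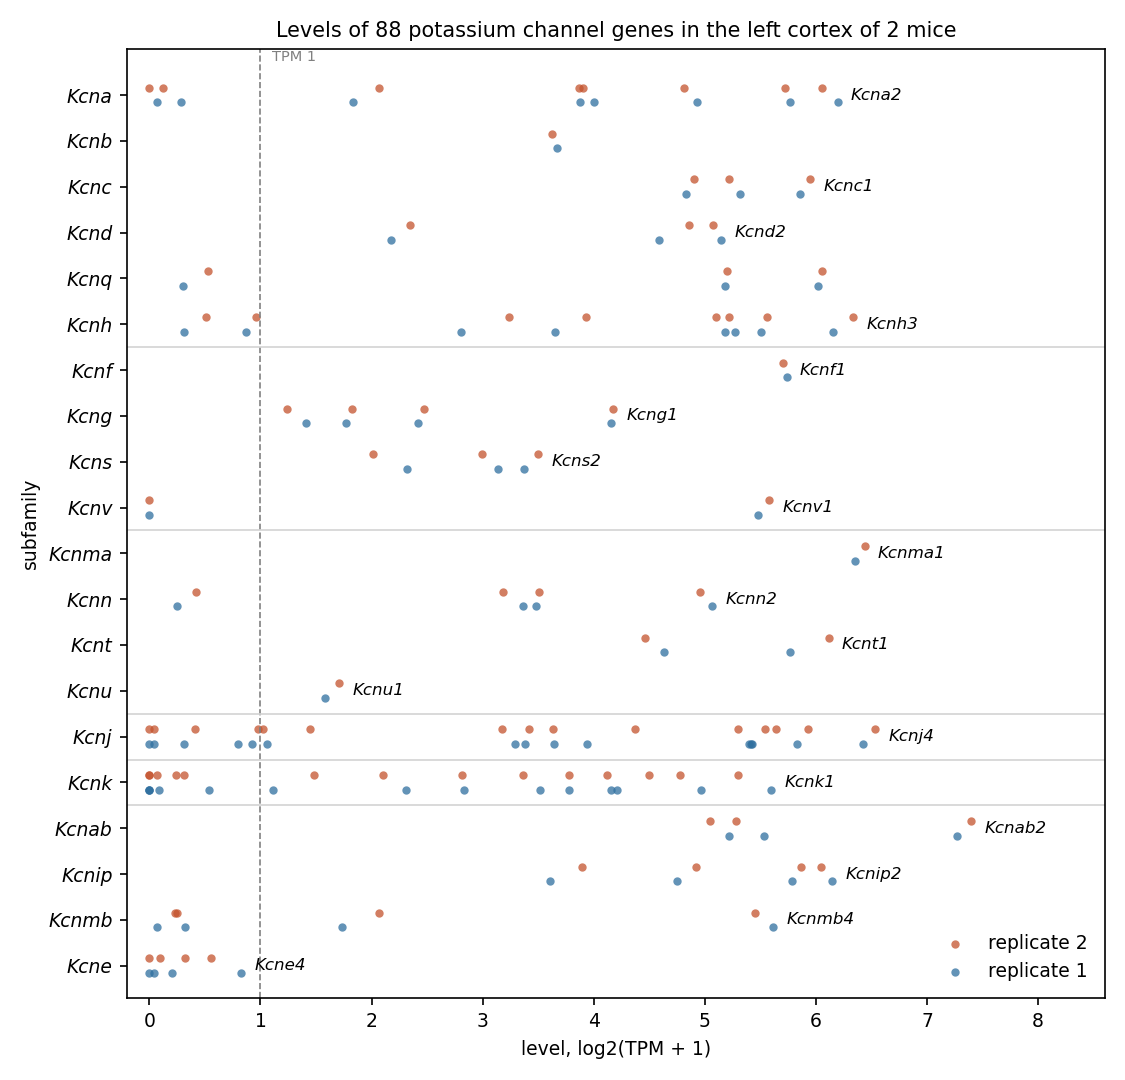
Level of 88 of the 92 members as log2(TPM + 1) (x axis) by subfamily (y axis), with replicate 2 above replicate 1 and 1 point per gene and mouse. Lines part the role groups, the dashed line marks a TPM of 1, and the most abundant member of a subfamily is named where it is drawn. Kcnab2 lies farthest to the right, and all 4 Kcne genes lie below a TPM of 1.

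The most abundant member was an auxiliary subunit. Kcnab2 (ENSMUSG00000028931.11, chr4:152390742-152477871, minus strand), a cytoplasmic beta subunit of Kv1 channels, had 168 TPM in replicate 2 and 153 in replicate 1, and its range did not overlap that of any other member. The 20 most abundant members held 62.7% of the summed member TPM in replicate 2 and 61.4% in replicate 1. In this order of 20, 13 of 19 neighbouring pairs had overlapping ranges and so are not ordered beyond the spread between the mice.

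By role, voltage-gated pore subunits carried the largest share of the summed member TPM, 42.6% in replicate 2 and 42.9% in replicate 1 (42.8% ± 0.210, SD, n = 2). Auxiliary subunits followed with 19.98% and 20.2%, and inward rectifiers with 14.96% and 14.1%. Calcium- and sodium-activated pores had 10.03% and 9.61%. Modifier subunits had 6.37% and 6.45%, and two-pore-domain channels 6.04% and 6.65%, so the last 2 groups are not ordered by these mice. In the read-based table (a second quantification made directly from the reads) auxiliary subunits had 23.3% and voltage-gated pores 40.0%, averaged over the mice. By expected counts, which grow with transcript length, voltage-gated pores had 56.2% and auxiliary subunits 10.8%.

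**Figure D2:**
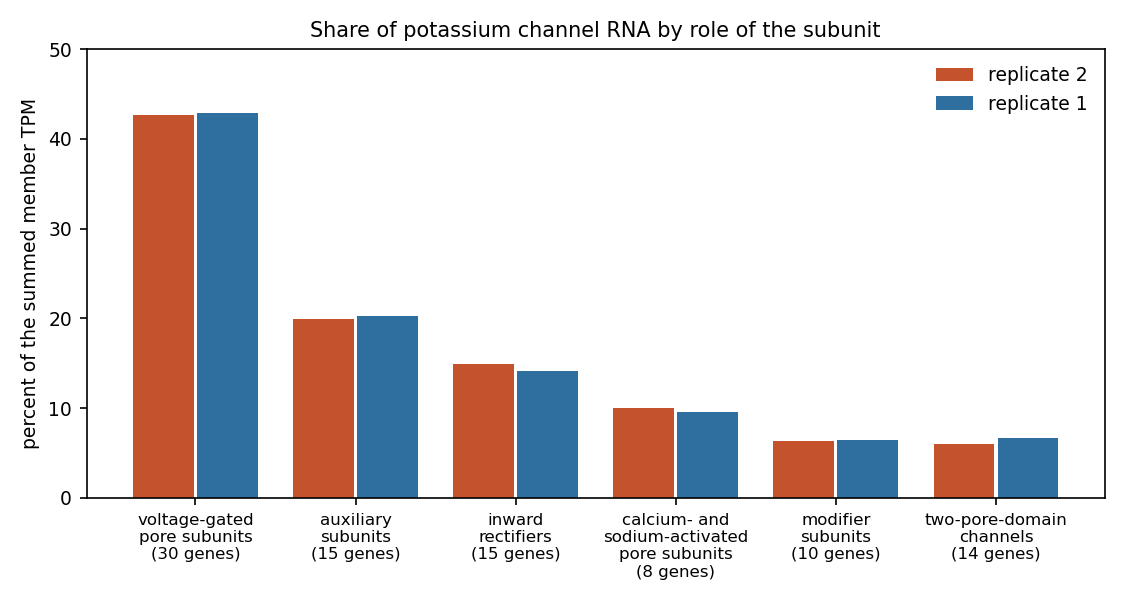
Percent of the summed member TPM (y axis) carried by each role group (x axis), with replicate 2 to the left of replicate 1 and the number of genes in brackets. Voltage-gated pore subunits hold 42.6% and 42.9%, auxiliary subunits 19.98% and 20.2%.

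Among voltage-gated pores, 25 of 30 members were detected by this threshold, beside the 58.6% of all protein-coding genes. Of the Kv7 genes (Kcnq), Kcnq3, a subunit of the M-channel that restrains repetitive firing, had 65.4 TPM in replicate 2 and 63.7 in replicate 1. Kcnq5, a further M-channel subunit of forebrain neurons, had 35.8 and 35.4 TPM, and its range lay below that of Kcnq3. Kcnq1, known from heart and epithelia, stayed under 1, at 0.440 and 0.230.

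The Kcnh genes (EAG, ERG and ELK channels) summed to 219 TPM in replicate 2 and 206 in replicate 1. Kcnh3, an ELK channel of forebrain neurons, led with 79.7 and 70.3 TPM. Kcnh7, of the ERG type, followed with 46.2 and 44.4, and the EAG genes Kcnh5 and Kcnh1 had 36.2 and 37.6 TPM and 33.3 and 35.3 TPM in replicates 2 and 1. Kcnh2, best known as the heart ERG channel, had 14.2 and 11.6 TPM, and Kcnh4 8.42 and 5.99. All 3 types were thus present. Kcnh6 and Kcnh8 stood below 1 TPM in both mice. By expected counts the lead passed to Kcnh7, with 7277 counts in replicate 2 and 8299 in replicate 1, against 4596 and 4642 for Kcnh3.

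Of the 8 Kv1 genes (Kcna), 6 reached 1 TPM in both mice, with a sum of 175 TPM in replicate 2 and 187 in replicate 1. Kcna2 had 65.6 and 72.2 TPM and Kcna1 51.8 and 53.3; their proteins form the low-threshold channels of axons. Kcna6 followed with 27.1 and 29.5 TPM. Kcna4, the A-type member, had 13.98 and 15.04 TPM. Kcna3, best known from lymphocytes, had 13.6 and 13.6. These ranges of Kcna4 and Kcna3 did not overlap, but their order depends on the quantification. In the read-based table Kcna4 was the lower, with 18.3 and 15.6 TPM against 19.8 and 19.8 for Kcna3. Kcna5 had 3.19 and 2.57 TPM, and Kcna7 and Kcna10 had at most 3 counts in either mouse.

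The 4 Kv3 genes (Kcnc), whose fast deactivation permits high firing rates, were all detected. Kcnc1 had 60.8 and 56.8 TPM in replicates 2 and 1, Kcnc2 36.2 and 39.0, and Kcnc4 28.9 and 27.4. The ranges of these 3 genes did not overlap. Kcnb2, a delayed rectifier of the Kv2 type, had 11.3 and 11.7 TPM. In Kv4, the source of the somatodendritic A-type current, Kcnd2 had 32.7 and 34.3 TPM, Kcnd3 28.0 and 23.1, and Kcnd1 4.10 and 3.52. The ratio of Kcnd2 to Kcnd3 was 1.17 in replicate 2 and 1.49 in replicate 1, and by counts in replicate 2 Kcnd3 was the higher (3247 against 3040).

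Modifier subunits form no channel alone and join Kv2 pores. Of 10 such genes, 9 reached 1 TPM in both mice, beside 58.6% of all protein-coding genes. Kcnf1 had 51.0 and 52.3 TPM in replicates 2 and 1 and Kcnv1 46.8 and 43.7. These 2 carried most of the group. The leading Kv6 and Kv9 genes were lower, with Kcng1 at 17.0 and 16.8 TPM and Kcns2 at 10.3 and 9.35 TPM. The filter codons of Kcnf1, printed above, read glycine-tyrosine-glycine. Kcnv2, known from photoreceptors, had 0 counts in both mice.

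In the ion-activated group 7 of 8 genes reached 1 TPM in both mice, beside the same 58.6%. Kcnma1, the large-conductance BK channel, had 85.8 TPM in replicate 2 and 80.9 in replicate 1. Kcnt1, a sodium-activated channel, had 68.3 and 53.4, and Kcnt2 21.02 and 23.9. The ratio of Kcnt1 to Kcnt2 was 3.25 in replicate 2 and 2.24 in replicate 1. Of the small-conductance SK channels, which carry the after-hyperpolarisation, Kcnn2 had 30.1 and 32.4 TPM, Kcnn3 10.4 and 10.2, and Kcnn1 8.07 and 9.32. Kcnn4, the intermediate-conductance channel of blood cells and epithelia, had 12 and 7 counts. Kcnu1, known from sperm, is grouped here by its subfamily letter and not by what opens it. It was listed at 2.26 and 2.00 TPM on 53 and 47 counts, and its signal fell on transcript Kcnu1-202 (2.04 and 1.59 TPM). That transcript lacks the filter codons, while Kcnu1-201, which has them, was listed at 0 in both mice.

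Inward rectifiers reached 1 TPM in both mice for 10 of 15 genes, near the 58.6% of all protein-coding genes. Kcnj4, a strong rectifier of the Kir2 type found in forebrain neurons, had 91.6 TPM in replicate 2 and 84.8 in replicate 1. The other Kir2 genes were lower, with Kcnj2 at 9.71 and 8.77 TPM, Kcnj12 at 8.03 and 9.39 and Kcnj14 at 1.03 and 1.08. The G protein-gated (GIRK) subunits, opened by inhibitory transmitters, lay close together. Kcnj9 had 60.0 and 55.7 TPM, Kcnj3 49.0 and 42.0, and Kcnj6 45.4 and 41.2, while Kcnj5, the atrial subunit, had 0.330 and 0.240. The ranges of Kcnj3 and Kcnj6 overlapped, and the range of Kcnj9 lay above both.

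Members known from particular cells were set beside markers of those cells. Kcnj10, the astrocyte channel of potassium buffering, had 38.3 and 41.7 TPM and its partner Kcnj16 11.4 and 11.5. The astrocyte markers Aqp4, Slc1a3 and Aldh1l1 were all detected, with sums of 207 and 201 TPM in replicates 2 and 1. Kcnj11, the pore of the neuronal ATP-sensitive channel, had 19.71 and 14.4 TPM and its regulatory partner Abcc8 16.5 and 16.3. Kcnj8, the vascular form in mural cells, had 0.970 and 0.900 TPM and Abcc9, its partner, 2.12 and 2.12, where the 3 mural markers summed to 56.4 in each mouse. The interneuron markers Gad1, Gad2, Pvalb and Sst summed to 442 TPM in replicate 2 and 422 in replicate 1, with Pvalb, of fast-spiking cells, at 32.4 and 43.8. Kcnc1 and Kcnc2, the channels tied to those cells, differed by 0.11 and −0.16 (log2 ratio, replicate 2 over replicate 1) where Pvalb differed by −0.51.

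Two-pore-domain channels had 9 of 14 members at 1 TPM in both mice, near the 58.6% of all protein-coding genes, and no member above 50. Kcnk1, found in astrocytes and neurons, had 38.3 TPM in replicate 2 and 47.4 in replicate 1, and Kcnk2, a stretch- and lipid-sensitive channel, 26.3 and 30.3. Kcnk9 and Kcnk3, the acid-sensitive TASK channels, had 21.6 and 17.5 TPM and 9.30 and 10.4 TPM in replicates 2 and 1. Kcnk4 (16.3 and 16.8), Kcnk12 (12.7 and 12.7) and Kcnk10 (6.05 and 6.14) followed. Kcnk9 led by expected counts, with 4854 and 4195, against 1445 and 1838 for Kcnk1. The microglial members Kcnk13 and Kcnk6 had 3.29 and 3.97 TPM and 1.80 and 1.16 TPM, and the microglial markers Csf1r, Cx3cr1 and P2ry12 summed to 64.3 and 64.2. Kcnk16 and Kcnk18, known from pancreas and sensory ganglia, had 0 counts.

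Auxiliary subunits were uneven, with 9 of 15 detected beside the 58.6% of all protein-coding genes. All 3 Kv-beta genes and all 4 Kcnip genes reached 1 TPM in both mice, 2 of 4 Kcnmb genes did and 0 of 4 Kcne genes did. Kcnab2 held 70.6% of the Kv-beta sum in replicate 2 and 65.2% in replicate 1, ahead of Kcnab1 (37.8 and 45.2 TPM) and Kcnab3 (32.1 and 36.3). The Kv-beta sum exceeded the summed level of the Kcna pores 1.36-fold and 1.26-fold, and 1.83-fold in the read-based table. Kcnip proteins are calcium sensors of Kv4 channels. Kcnip2 had 64.9 and 69.8 TPM, Kcnip3 57.4 and 54.2, Kcnip4 29.3 and 25.9 and Kcnip1 13.9 and 11.2. Their sum stood above that of the 3 Kcnd pores, 2.55-fold in replicate 2 and 2.64-fold in replicate 1.

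Of the BK beta subunits, the neuronal form led. Kcnmb4 had 42.8 TPM in replicate 2 and 47.9 in replicate 1, or 92.3% and 94.8% of the Kcnmb sum. Kcnma1, its pore, exceeded it 2.00-fold and 1.69-fold. Kcnmb2 had 3.20 and 2.33 TPM. Kcnmb1, of smooth muscle, and Kcnmb3 had at most 14 counts, and Kcnmb1 lies inside the span of Kcnip1. The Kcne genes, single-span partners of Kcnq1 and other pores, were led by Kcne4 at 0.470 and 0.770 TPM.

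In all, 5 members had 0 expected counts in both mice: Kcne1, Kcnj1, Kcnk16, Kcnk18 and Kcnv2. The same was true of 4598 of all 22028 protein-coding genes. A count of 0 allows up to 3 counts in a library. For these 5 members that is a TPM of up to 0.0326 to 0.115 in replicate 2 and 0.0304 to 0.107 in replicate 1. For Kcnj1, the renal channel, the read-based table gave 1.00 and 3.13 estimated counts. Such limits cover counting error only.

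Of 17 other genes whose proteins join or anchor potassium channels, 13 reached 1 TPM in both mice, beside 58.6% of all protein-coding genes. Dpp6 and Dpp10, partners of Kv4, had 83.5 and 75.5 TPM and 64.6 and 65.7 TPM in replicates 2 and 1. Adam22, of the axonal Kv1 complex, had 98.2 and 101 TPM, and Amigo1, a partner of Kv2, 31.5 and 33.9. Of the BK gamma subunits Lrrc55 had 14.9 and 12.8 TPM, Lrrc38 0.730 and 0.960, and Lrrc52 and Lrrc26 had at most 2 counts. Kcnrg was the fourth below 1, at 0.470 and 0.210.

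The tissue label was checked against markers. The excitatory neuron markers Slc17a7 and Nrgn had 563 and 599 TPM and 819 and 945 TPM in replicates 2 and 1. The oligodendrocyte markers Mbp and Mog had 497 and 576 TPM and 21.3 and 27.6 TPM. Cerebellar markers (Gabra6, Cbln3, Barhl1) were at or near 0, with a sum of 0.150 and 0.200. The striatal markers Drd1, Drd2 and Adora2a summed to 41.0 and 44.7. Choroid plexus markers (Ttr, Folr1, Kl) summed to 7.30 and 10.5. The part of these cell contents in the members' differences was not tested.

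Between the mice the members differed about as much as protein-coding genes in general. Among the 65 members with a mean count of at least 100, 0 had a log2 ratio (replicate 2 over replicate 1) over 1 in size, against 0.247% of all protein-coding genes. Their ratios ran from −0.42 for Kcns3 to 0.44 for Kcnh4, with 23 above 0 and 42 below, where 57% of all protein-coding genes were below. The median was −0.07, and that of all protein-coding genes was −0.03. With signs left out, the median ratio was 0.115 for the members and 0.104 for all protein-coding genes. These ratios use TMM scaling; scaled on spike-in totals the medians were 0.33 for the members and 0.37 for all protein-coding genes, so directions hold only relative to other genes. On spike-in totals 63 members were above 0 and 2 below, where 1.85% of all protein-coding genes were below. On library totals 30 members were above and 35 below, where 40.3% of all protein-coding genes were below. The spread between the mice, as the biological coefficient of variation of edgeR over 17529 genes, was 8.96%.

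The genes at the ends of this range were picked after their values were seen. Kcnh4 had 569 counts in replicate 2 and 430 in replicate 1, with an exact 95% counting interval on its ratio of 0.26 to 0.62. Kcnt1 had 4515 and 3824 counts and a ratio of 0.27 (0.21 to 0.34), and Kcnk9 4854 and 4195 counts and a ratio of 0.25 (0.19 to 0.31). At the low end stood Kcns3, with 136 and 187 counts and a ratio of −0.42 (−0.75 to −0.10). Kcng4 followed with 88 and 119 counts and a ratio of −0.40, and its interval, −0.82 to 0.01, includes 0. Kcnab1 had 1832 and 2420 counts and a ratio of −0.37 (−0.46 to −0.28). The intervals cover counting error only and hold for TMM scaling. Of 8 two-pore-domain genes at this depth, 7 had a ratio below 0 on TMM scaling, beside the 57% of all protein-coding genes. In the other role groups 5 of 6 ion-activated, 6 of 8 auxiliary, 15 of 25 voltage-gated and 5 of 9 modifier genes did. Of the inward rectifiers 4 of 9 did. On spike-in totals 0 of the 8 two-pore-domain genes were below 0, beside 1.85% of all protein-coding genes.

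At a mean count of at least 20, 1 of 75 members passed a log2 ratio of 1, and the background was 0.84%. It was Kcnj13, a rectifier of the choroid plexus, with 37 counts in replicate 2 and 17 in replicate 1 (1.72 and 0.740 TPM, ratio 1.13, interval 0.29 to 2.08). Of the choroid plexus markers, Ttr was lower in replicate 2, with 5.35 and 8.6 TPM on 107 and 184 counts in replicates 2 and 1. Folr1 had 0.520 and 0.580 TPM on 5 and 7 counts, and Kl 1.43 and 1.30 TPM on 133 and 129 counts. Neither Folr1 nor Kl gave a clear direction. Of the exon bases of Kcnj13, 49.1% are shared with Gigyf2 on the other strand. The part of choroid plexus or of Gigyf2 reads in the count of Kcnj13 was not tested. With no count minimum 7 of 87 members passed, and 10.1% of protein-coding genes did.

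**Figure D3:**
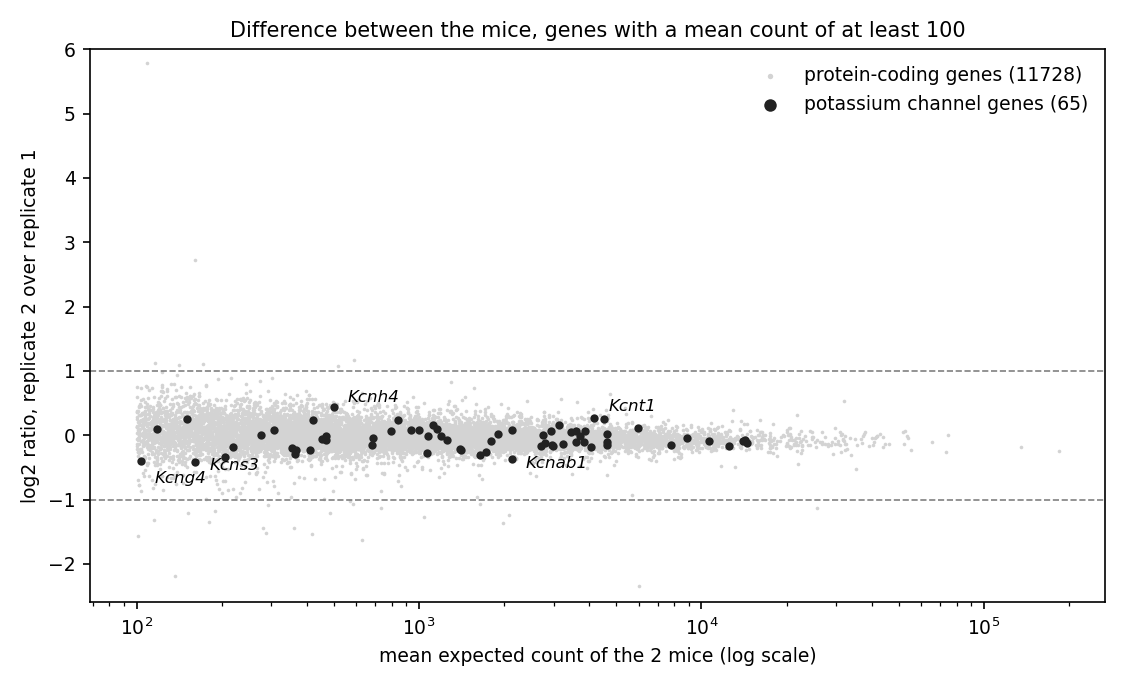
Log2 ratio of TMM-scaled expected counts, replicate 2 over replicate 1 (y axis), against the mean expected count of the mice on a log axis (x axis), for 65 potassium channel genes (black) over 11728 protein-coding genes (grey). All black points lie between −0.42 and 0.44, inside the dashed lines at 1 and −1.

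The leading transcript, the one with the highest TPM of its gene, was compared between tables and mice. Of 57 members at 1 TPM in both mice with over 1 annotated transcript, the leading one was protein-coding in 54, where the background was 92.1%. Alignment-based and read-based quantification named the same leading transcript for 46 of the 57, and for 75.9% of such protein-coding genes. Both mice had the same one in 51 of 57, and in 87.7% of such protein-coding genes, so the members' counts lie near the background in type and between mice. Kcnma1, with 38 annotated transcripts, put 63.4% of its TPM in replicate 2 and 69.5% in replicate 1 on Kcnma1-205. Among the 20 most abundant members Kcnab2 had the lowest share on a leading protein-coding transcript, with 39.5% and 39.8% on Kcnab2-201. The read-based table gave that transcript 19.5% and led with Kcnab2-207 at 33.9%, so the leading form of Kcnab2 depends on the quantification.

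**Figure D4:**
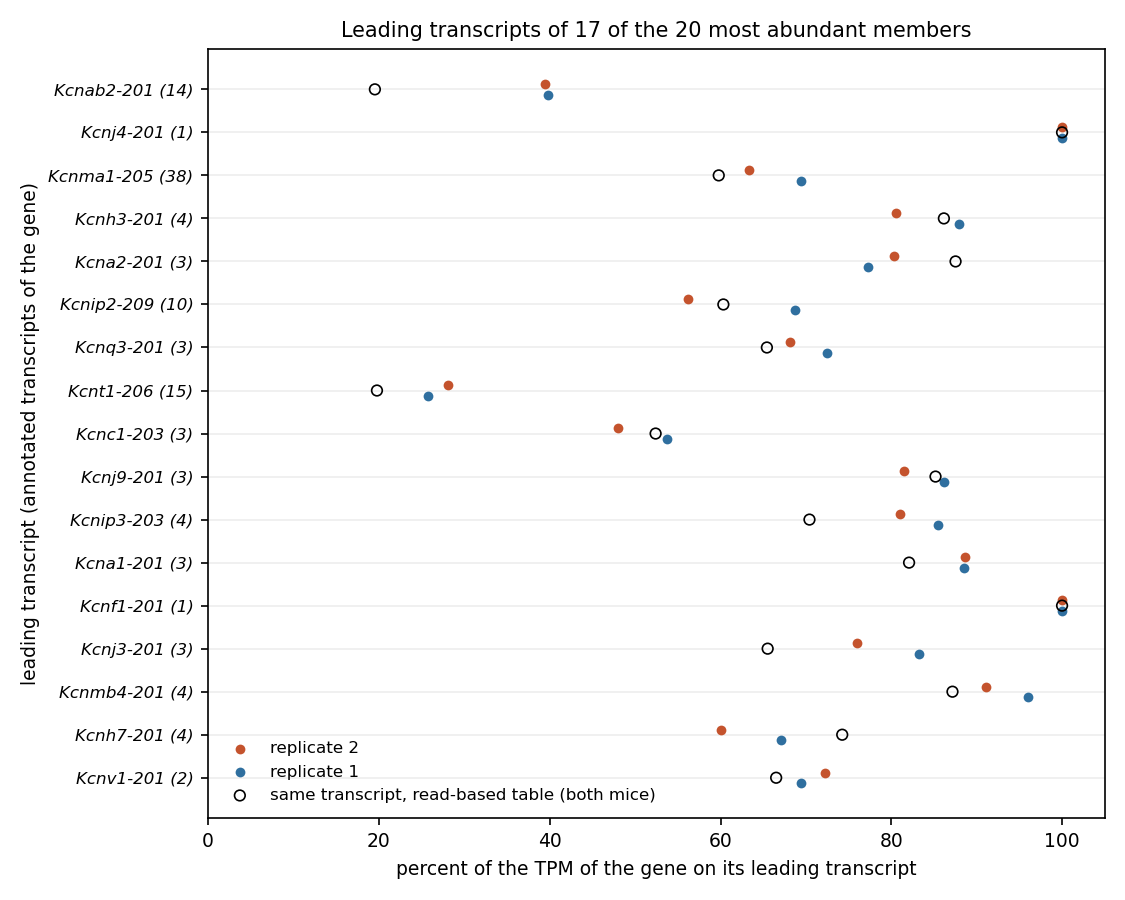
Percent of the TPM of each gene on its leading transcript (x axis) for 17 of the 20 most abundant members (y axis, most abundant at the top, number of annotated transcripts in brackets), with replicate 2 above replicate 1 and open circles for the same transcript in the read-based table. Kcnj4 and Kcnf1 have 1 transcript and stand at 100%, and Kcnt1 and Kcnab2 stand under 40%.

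The 3 exceptions were Kcnt1, Kcna6 and Kcnn3. Kcnt1 led with Kcnt1-206, annotated as a retained intron, at 28.1% of its TPM in replicate 2 and 25.7% in replicate 1. All its retained-intron transcripts together held 63.8% and 56.6%, and its protein-coding ones 23.6% and 27.9%. The TPM of Kcnt1 given above is thus mostly of transcripts with no annotated coding sequence, and the printed filter codons of Kcnt1 come from its coding transcript Kcnt1-201. Kcna6 had 60.4% and 61.9% on Kcna6-201, annotated for nonsense-mediated decay, and 20.7% and 17.4% on protein-coding transcripts. Of the exon bases of Kcna6, 39.6% are shared with Gm26673 on the other strand. Kcnn3 was split between Kcnn3-202, a retained intron, with 50.8% and 49.5%, and its coding transcript Kcnn3-201.

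Retained-intron transcripts held 7.29% of the TPM of the detected members in replicate 2 and 6.03% in replicate 1, beside 8.82% and 7.24% for all detected protein-coding genes. Of 18 members with such a share above 0, 14 had the higher share in replicate 2 (77.8%), and 73.4% of protein-coding genes did. Kcnh3 had 19.4% in replicate 2 and 12.02% in replicate 1, Kcnj9 16.05% and 11.0%, Kcnip2 15.6% and 10.9% and Kcnq5 10.5% and 2.49%. Lower in replicate 2 were Kcnab3, Kcnv1, Kcnn2 and Kcnt2, with Kcnab3 at 39.0% and 44.7%. The members' share lies near that of all protein-coding genes, and the part of RNA quality in it was not tested.

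**Figure D5:**
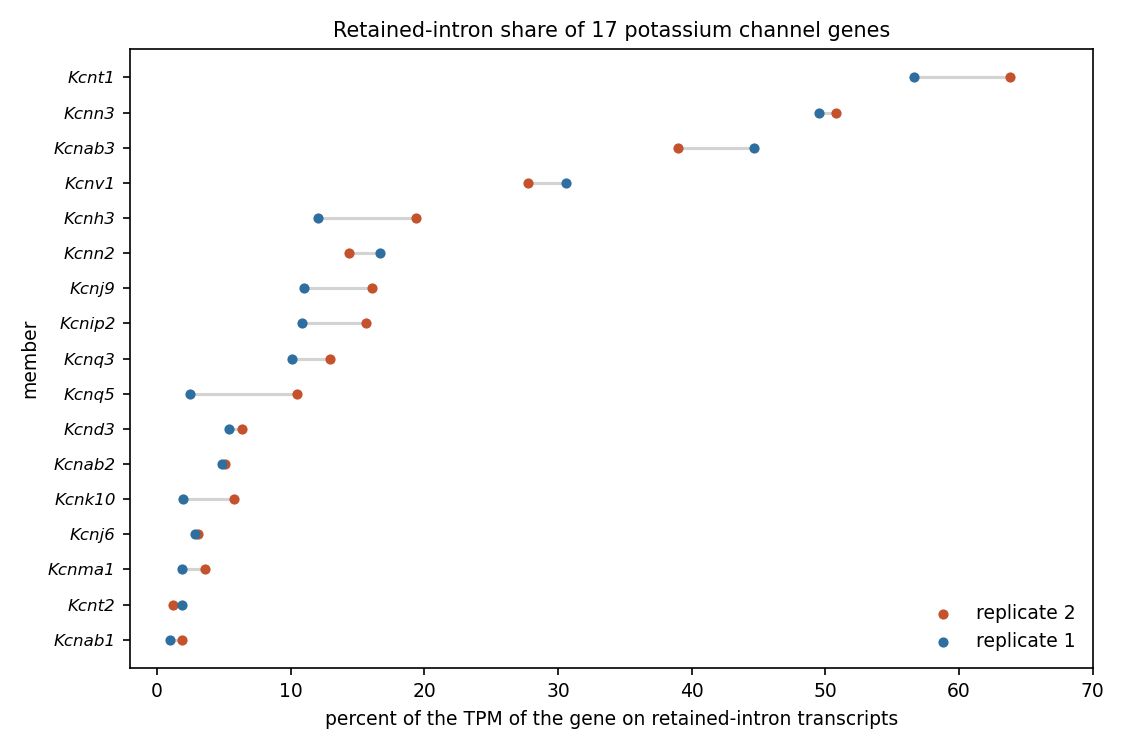
Percent of the TPM of the gene on retained-intron transcripts (x axis) for 17 of the 18 detected members with a share above 0 (y axis), in replicate 2 and replicate 1. Kcnt1 and Kcnn3 have the highest shares, and replicate 2 lies to the right for 13 of the 17 drawn.

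The alignment-based level was below the read-based one for most members. The median difference on the log2(TPM + 1) scale, alignment-based minus read-based, was −0.51 for members with a mean of at least 1 TPM and −0.58 for such protein-coding genes. Kcnt1 differed most, at 60.8 ± 10.5 TPM against 124 ± 23.7 read-based (SD, n = 2; difference −1.01). Kcnk4 (16.6 ± 0.325 against 34.0 ± 1.66) and Kcnab1 (41.5 ± 5.20 against 83.7 ± 13.3) differed by −0.99 each. Kcnk4 shares 13.1% of its exon bases with Catsperz on the same strand. At the other end were Kcnmb2 (2.77 ± 0.615 against 2.56 ± 0.131, difference 0.08), Kcnd1 (−0.15) and Kcnj14 (−0.21). The most abundant member of each of the 17 subfamilies with over 1 gene was the same in both mice and in both tables by TPM. By expected counts the leader was the same in both mice in 15 of 17, and the Kcnj lead passed to Kcnj3 in replicate 2 and to Kcnj10 in replicate 1.

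Gene structure varied widely among the members. The coding part of the leading coding transcript was 1 exon in 20 members, 15 of them detected, among them Kcna1, Kcna2, Kcnj4 and Kcnf1. The median level was 10.6 TPM for these and 12.6 TPM for the other 72. Kcnip4 spans 1135 kb and Kcna3 1.90 kb. Exons of 28 members overlap those of another gene, 26 of them on the other strand, and the strand setting of the counting is not given in the sources used here, so the counts of those members are uncertain. Among the 20 most abundant this concerns Kcnmb4 (31.5% of exon bases) and Kcnj3 (31.1%) most. Coding exons and overlaps were counted for the members only, so no share over all protein-coding genes stands beside them.

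Of the 92 members, 18 lie in 10 neighbouring pairs with under 200 kb between them, and some of these neighbours differed widely in level. On chromosome 3, Kcna3, Kcna2 and Kcna10 lie in a row on the plus strand with mean levels of 13.6, 68.9 and 0.155 TPM. On chromosome 6, Kcna5, Kcna1 and Kcna6 lie on the minus strand with 2.88, 52.6 and 28.3 TPM. Kcnj9 and Kcnj10, a neuronal and an astrocytic rectifier, are 11.9 kb apart on opposite strands of chromosome 1 and had 57.8 and 40.0 TPM. Kcnj16 and Kcnj2 on chromosome 11 had 11.4 and 9.24 TPM. In the pairs Kcnk5 and Kcnk16, Kcne2 and Kcne1, and Kcnj5 and Kcnj1, both genes stayed under 1 TPM. Neighbouring pairs were counted for the members only, with no background over all protein-coding genes.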

How the data were processed

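Total RNA of 2 cortices was sequenced, 1 library a mouse. Per the file headers and the deposited listings, the authors estimated expected counts, TPM values and the percent of its gene's TPM on each transcript from a transcriptome alignment (alignment-based), and expected counts and TPM per transcript directly from the reads (read-based), with GENCODE M21 on mm10. The aligner, counter, versions and strand setting were not given in the sources used here. Reads of the F1 hybrid were set against the B6 reference, and the effect of CAST alleles was not tested. The SD over 2 mice measures only the spread between these samples.

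The members, lists and named genes were chosen with earlier results of these data known. Named are the 20 members of highest mean TPM, the leading member of each subfamily, members of the larger subfamilies to give their order, members at 0 counts or past the fold, and the 3 with the largest difference between the tables in each direction. Detected means a TPM of 1 or more in each mouse. Ratios between the mice are of expected counts scaled by TMM in edgeR 4.0.16 (R 4.3.3), with a prior count of 0.5 and a mean count of at least 100, with exact Clopper-Pearson intervals at 95%. The code was tested on simulated data. DESeq2 1.42.0 size factors, library and spike-in totals, other minimums and the read-based tables were alternatives. Tables and figures were made in Python 3.11.15 with numpy 2.4.6, pandas 2.3.3, matplotlib 3.10.9 and scipy 1.17.1. Filter codons were found by translating GENCODE coding sequences; sequences on chromosome 18 are not printed. Some genes and sequences that the rule would name are not reported here.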

Additional observations from a re-analysis of the deposited data

How the results depend on the processing

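The count of detected members was 80 at a TPM threshold of 0.1, 57 at 5, 73 with TPM rescaled over nuclear protein-coding genes, 72 in the read-based table and 69 to 70 with 1 mouse left out. Their median level, 3.68 as log2(TPM + 1), was 3.57 with a pseudocount of 0.1, 4.76 rescaled, 4.03 read-based, 4.30 over the 76 members of 10 or more counts in each mouse, and 3.65 to 3.70 with 1 mouse left out. In the read-based table the shares were 23.3% for auxiliary subunits, 13.6% for inward rectifiers and 40.0% for voltage-gated pores. By expected counts they were 10.8%, 10.5% and 56.2%, and 5.14% for two-pore-domain channels; counts grow with transcript length. With 1 mouse left out the shares ran from 19.98% to 20.2% for auxiliary subunits, 14.1% to 14.96% for inward rectifiers, 42.6% to 42.9% for voltage-gated pores and 6.04% to 6.65% for two-pore-domain channels. The count of members past a log2 ratio of 1 was 1 at a minimum mean count of 20 and 7 with no minimum. Their median ratio, −0.07, was 0.33 on spike-in totals. By expected counts 15 of 17 subfamilies had the same leader in both mice. The leading transcript was protein-coding in 54 to 55 members and the same in both tables in 47 to 49 with 1 mouse left out. No paired analysis was possible because the mice form 1 group. Members under 100 counts are limited by depth.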

Other observations

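Antisense genes named after members were also counted. Kcnq1ot1, a long RNA transcribed against Kcnq1, had 6415 expected counts in replicate 2 and 4800 in replicate 1 (3.75 and 2.62 TPM). Kcnq1 itself had 22 and 13 counts (0.440 and 0.230 TPM). Counts grow with transcript length, so the 2 genes lie closer by TPM than by counts. Kcnmb4os2 had 99 and 106 counts and Kcnd3os 36 and 20, while Kcnab3os had 1 and 0 and Kcnmb4os1 had 0 in both. The exons of Kcnq1ot1 cover 2.96% of the exon bases of Kcnq1.

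For Kcnj16 the 2 quantifications put the RNA on different transcripts. The alignment-based table gave Kcnj16-201 87.2% of the TPM of the gene, averaged over the mice, and the read-based table gave it 0.0373% and led with Kcnj16-206 at 64.6%. Both transcripts are annotated as protein-coding, and this gene was named after its values were seen.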
